A study of Homo sapiens with 3 samples.

Results

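Microtubules are built from dimers of alpha- and beta-tubulin, and human cells hold several genes, called isotypes, for each of the 2 subunits. The isotypes share a nearly constant body and differ mainly in a short acidic tail at the end of the protein, which lies on the outside of the microtubule and carries many of its modifications. TUBB3 (class III beta-tubulin) is best known from neurons and is also studied in tumours treated with taxanes, which bind beta-tubulin. The 10 isotypes described here are the alpha genes TUBA1A, TUBA1B, TUBA1C and TUBA4A and the beta genes TUBB, TUBB2A, TUBB2B, TUBB3, TUBB4B and TUBB6. They were taken as a list of symbols, found by their Ensembl gene identifiers, and make up 10 of the 27024 genes counted. Each had a level of 1 CPM (counts scaled to the library size) or more in all 3 libraries, as did 47.7% of all genes.

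RNA-seq of 22Rv1 WT cells was measured in 3 libraries, numbered replicates 1 to 3. 22Rv1 is an established line of human prostate carcinoma cells, and its WT cells carry the intact enhancer that the study deleted or edited in other cells, which were not analysed here. The cells were grown in RPMI1640 medium with FBS, and no drug treatment is given for them. The study's text calls the WT samples control clones in one place and biological replicates in another, and a figure legend calls them different lines. Whether the spread between libraries includes differences between clones, beside technical ones, is therefore not known. With 1 group there is no comparison between conditions, and the results below are levels, shares and spread. Levels are the authors' normalized counts, that is, reads divided by a size factor for each library, and between 35675670 and 38629080 reads per library could be recovered from them. A longer transcript gives more reads, so the order of the isotypes was set per kilobase (kb) of the canonical transcript, with other lengths as alternatives. Ranks and shares by normalized counts are given as well and do not allow for length.

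Markers of prostate luminal epithelium were expressed for 9 of 9 genes, with a summed level of 101900 to 103120 normalized counts. Of the 4 neuronal markers only SNAP25 was expressed, at 695 normalized counts, and NEFL, NEFM and RBFOX3 stayed at or below 5.5 in each library. The summed neuronal level was 670.2 to 746.3. For fibroblasts, COL1A1 and LUM of 4 markers were expressed, with a summed level of 407.8 to 443.2. For endothelium 0 of 2 measured markers were expressed, with a summed level of 0 to 1.6. For leukocytes only CD68 of 3 markers was expressed, PTPRC was at or below 0.8 and CD3E was at 0, and the summed level was 59.8 to 80.6. The part of other cell types in the tubulin levels was not tested.

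The ends of the beta coding sequences are shown because they encode the tails, in which most of these isotypes differ. Each line gives the last 20 codons and the stop codon, read from the GRCh37 genome on the strand of the gene, with the last sense codon in capitals.
TUBB: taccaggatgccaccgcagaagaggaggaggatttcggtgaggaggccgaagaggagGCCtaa
TUBB4B: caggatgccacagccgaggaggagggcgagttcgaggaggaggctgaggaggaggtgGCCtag
TUBB3: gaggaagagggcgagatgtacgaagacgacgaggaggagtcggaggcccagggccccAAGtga
TUBB6: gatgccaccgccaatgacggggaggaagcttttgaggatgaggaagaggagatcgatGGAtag
TUBB2A: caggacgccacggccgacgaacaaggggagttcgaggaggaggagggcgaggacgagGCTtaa
TUBB2B: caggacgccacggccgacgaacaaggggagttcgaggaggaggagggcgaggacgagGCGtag

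Each of these ends lies within 1 exon. They are at chr6:30692112-30692174 (plus) for TUBB, chr9:140137946-140138008 (plus) for TUBB4B, chr16:90002150-90002212 (plus) for TUBB3 and chr18:12326067-12326129 (plus) for TUBB6. The pair TUBB2A and TUBB2B ends at chr6:3154097-3154159 and chr6:3224985-3225047, both on the minus strand.

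Of the 20 codons shown, 11 encode an acidic residue (GAA, GAG, GAC or GAT) in each of the 6 beta genes. Among the beta genes only TUBB3 ends in a lysine codon (AAG). The ends of TUBB2A and TUBB2B differ only in the last base of the final alanine codon and in the stop codon. The 20 codons shown therefore encode the same residues in these genes.

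TUBA1B was the most abundant isotype. Its level was 95289.5, 93122.9 and 99282.2 normalized counts in replicates 1, 2 and 3, or 95898 ± 3124 (SD, n = 3), and by counts it ranked 4 among all genes. Per kb of transcript its level was 58942 ± 1920, rank 10 of all genes with a length. TUBA1C, another alpha gene of the cluster on chromosome 12, had 12750.8, 12071.7 and 13390.6 normalized counts and 4512 ± 234 per kb. TUBA1A, the alpha isotype known from developing neurons, had 4170.7, 4102.6 and 4334.7 normalized counts. Its level per kb was 2514 ± 71.4. In these 3 genes replicate 2 was lowest and replicate 3 highest. TUBA4A was the lowest alpha isotype at 1505.1, 1541.9 and 1518.6 normalized counts and 743 ± 9.09 per kb, and its 3 values differed by a factor of at most 1.025.

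TUBB and TUBB4B were the leading beta isotypes. TUBB, the widely expressed class I gene, had 57673.0, 57830.1 and 58813.5 normalized counts, or 58105 ± 618 (SD, n = 3), rank 24 among all genes by counts. TUBB4B, a broadly expressed class IV gene, had 36051.4, 35656.7 and 38735.9 normalized counts, rank 47 by counts, with replicate 3 above the other two. Per kb the 2 genes were at 23104 ± 246 and 23554 ± 1072, and their libraries overlapped. The values per kb of TUBB4B over those of TUBB were between 0.9921 and 1.06 in the 3 libraries.

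TUBB3 followed TUBB and TUBB4B among the beta genes. Its level was 3609.8, 3457.8 and 3667.1 normalized counts, or 3578 ± 108 (SD, n = 3), with replicate 2 lowest. Per kb the level was 2097 ± 63.4, which was above 91.05% of the expressed genes. TUBB6, a class V gene, had 1950.7, 1857.5 and 1977.6 normalized counts and 1026 ± 33.5 per kb. The ratio of TUBB3 to TUBB6 per kb was 2.04 ± 0.00617 over the 3 libraries. That was the smallest SD relative to the mean among the 11 ratios of isotypes computed. These ratios do not take in all possible pairs, and several hold TUBB2A or TUBB2B, which have few reads. For TUBA1B to TUBA1A the ratio per kb was 23.4 ± 0.109. TUBB per kb was 11.02 ± 0.282 times TUBB3 and TUBB4B was 11.2 ± 0.315 times TUBB3.

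TUBB2A and TUBB2B, a pair of class II genes on chromosome 6, were the lowest isotypes. TUBB2A had 369.7, 339.3 and 329.9 normalized counts, with replicate 1 highest. TUBB2B had 156.4, 170.1 and 138.6, with replicate 2 highest. Per kb they were at 214 ± 12.9 and 80.7 ± 8.22 (SD, n = 3), with every TUBB2A value above every TUBB2B value. These levels were above 39.64% and 19.63% of the expressed genes.

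**Figure D1:**
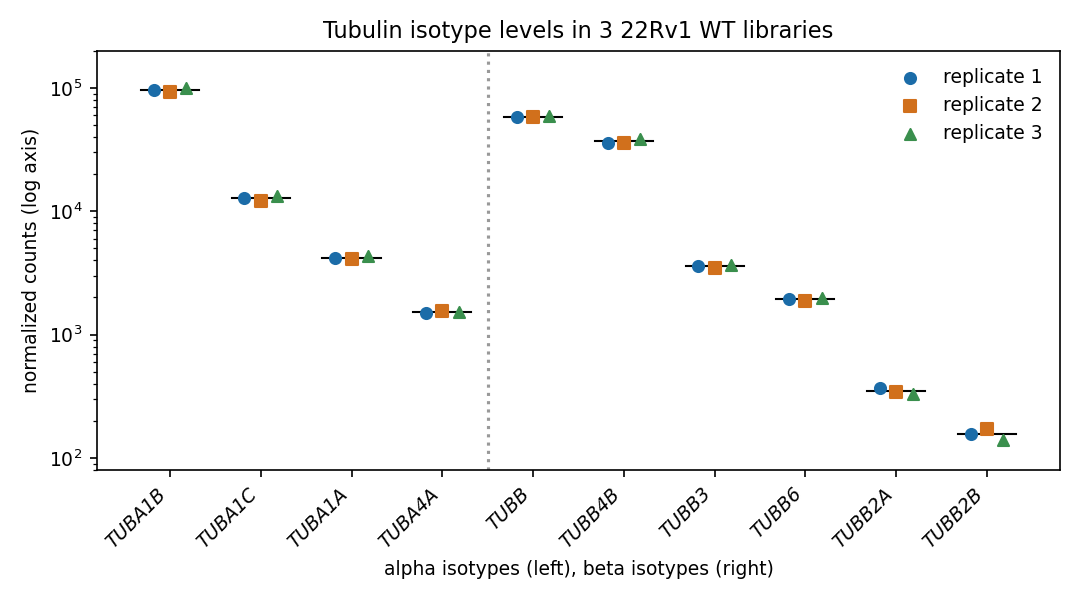
Normalized counts (log axis) of the 4 alpha isotypes on the left and the 6 beta isotypes on the right, with a point for each of the 3 22Rv1 WT libraries and a line at the mean. TUBA1B lies near 95898 and TUBB2B near 155, and the 3 libraries lie close together for each gene.

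Per kb of transcript the order of the isotypes was TUBA1B, TUBB4B, TUBB, TUBA1C, TUBA1A, TUBB3, TUBB6, TUBA4A, TUBB2A and TUBB2B. For 8 of the 9 pairs of neighbours all 3 values of one gene were above all 3 of the next, and TUBB4B and TUBB were the pair that overlapped. The steps were uneven, with TUBA1B 2.502 times TUBB4B, TUBB 5.12 times TUBA1C and TUBA1A 1.198 times TUBB3 in the ratio of means. With 3 libraries no p is given for these steps. The place of TUBB depended on the length used. TUBB has a 3′ untranslated part of 1025 bases and TUBB4B one of 151, and per kb of coding sequence TUBB was at 43623 ± 464 and TUBB4B at 27577 ± 1255 (SD, n = 3), with no overlap. The other 8 isotypes kept their ranks.

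**Figure D2:**
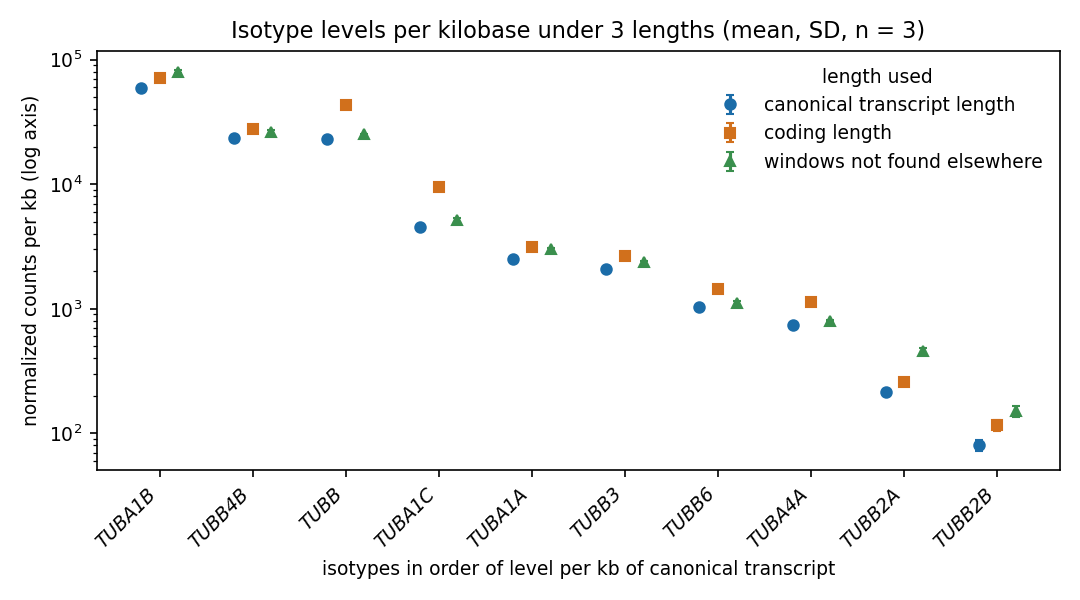
Mean level per kb (log axis, error bars SD, n = 3) of the 10 isotypes. The lengths used were the canonical transcript, the coding sequence, or the windows of read length without an exact copy elsewhere in the genome. TUBB stands above TUBB4B only with the coding length, at 43623 against 27577.

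Within the alpha family TUBA1B took 83.8%, 84.0% and 83.8% of the normalized counts in replicates 1, 2 and 3, a mean of 83.9% ± 0.137 (SD, n = 3). The 95% Wilson interval in replicate 1 ran from 83.6% to 83.99%, which covers counting error only. TUBA1C took 11.1% ± 0.214, TUBA1A 3.68% ± 0.0231 and TUBA4A 1.33% ± 0.0554. Per kb the share of TUBA1B was 88.4% ± 0.0713 and that of TUBA1C 6.76% ± 0.136. The transcript of TUBA1C, at 2823 bases, is the longest of the 10.

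Within the beta family TUBB took 57.8%, 58.2% and 56.7% of the normalized counts, a mean of 57.6% ± 0.767 (SD, n = 3), and TUBB4B took 36.1%, 35.9% and 37.4%. Replicate 3 had the lowest share of TUBB and the highest of TUBB4B. Both genes had their highest level in replicate 3. Together they held 94.0% ± 0.126, and as they make up most of the total their shares must move against each other. TUBB3 took 3.62%, 3.48% and 3.54%, a mean of 3.55% ± 0.0678. Its Wilson interval was 3.515% to 3.721% in replicate 1 and 3.378% to 3.588% in replicate 2, which overlap. For TUBB the intervals in replicates 1, 2 and 3 were 57.51% to 58.05%, 57.95% to 58.51% and 56.47% to 57.0%. For TUBB4B they were 35.86% to 36.38%, 35.63% to 36.18% and 37.11% to 37.63%. In both of these genes replicate 3 lay apart from the other libraries by counting error alone. TUBB6 took 1.91% ± 0.0421, TUBB2A 0.343% ± 0.0261 and TUBB2B 0.154% ± 0.0189. Per kb the shares were 46.2% ± 0.788 for TUBB, 47.0% ± 0.842 for TUBB4B and 4.19% ± 0.0793 for TUBB3.

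**Figure D3:**
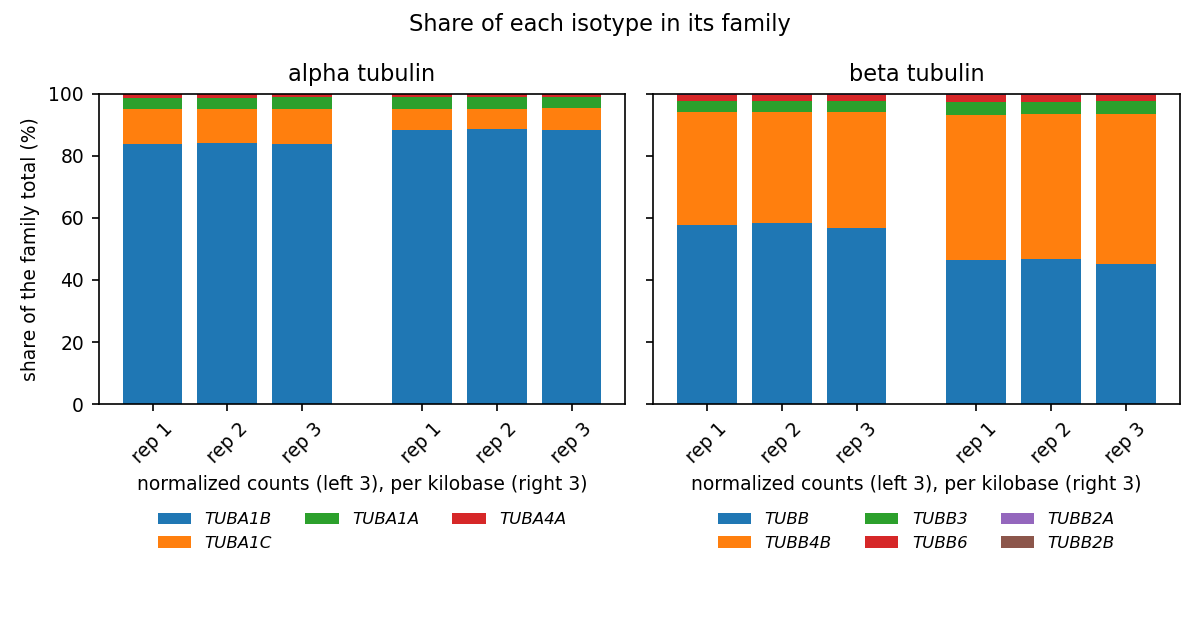
Share of each isotype in its alpha (left panel) or beta (right panel) total, in percent, for each of the 3 libraries, by normalized counts (left 3 bars) and per kb of transcript (right 3 bars). TUBA1B fills 83.9% of the alpha bars by counts, and the TUBB part of the beta bars shrinks from 57.6% by counts to 46.2% per kb.

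The alpha total was 113720, 110840 and 118530 normalized counts and the beta total 99811, 99312 and 103660. The dimer holds a single subunit of each family. The ratio of alpha to beta RNA per kb was 1.33 ± 0.0127 (SD, n = 3) with the canonical transcript and 1.12 with the coding length. It was 1.61 with the windows that have no exact copy elsewhere in the genome, so its size depended on the length chosen. All 10 isotypes together held 0.711% ± 0.0177 of the normalized counts of a library.

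Isotypes are close copies of each other, and a read from a stretch they share cannot be assigned to 1 gene by its own sequence. The windows below do not take account of the second read of a pair. The coding sequences of TUBB2A and TUBB2B were 98.13% identical, those of TUBA1B and TUBA1C 97.26% and those of TUBA1A and TUBA1B 97.2%. TUBA4A was 85.0% to 86.27% identical to the other alpha genes, and TUBB3 was closest to TUBB2A at 88.71%. In windows of 150 bases, the length of 1 read, 48.67% of those of TUBB2A and 41.62% of those of TUBB2B had an exact copy elsewhere in the genome. The share was 19.15% for TUBA1B, 7.814% for TUBA1A, 7.105% for TUBA1C, 2.663% for TUBB and 2.312% for TUBB3. TUBA4A, TUBB4B and TUBB6 had 0 such windows. The windows came from spliced transcripts and were searched in the genome only, not in the transcripts of other genes. Copies that cross an exon junction could therefore be missed, and the shares and counts of copied windows are lower bounds. TUBB2A shared 714 windows with TUBB2B, and TUBA1B shared 177 with TUBA1C and 106 with TUBA1A. TUBB2A and TUBB2B also shared windows with the pseudogene TUBB2BP1, and each shared 36 with TUBB3. The copied windows of TUBB matched the pseudogene TUBBP1. Divided by the windows without a copy, the order of the 10 genes was the same, with TUBB2A at 460 ± 27.6 and TUBB2B at 150 ± 15.3 per kb (SD, n = 3). The levels of these 2 genes are therefore uncertain, and whether multi-mapped reads were dropped or split is not given in the sources used here.

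**Figure D4:**
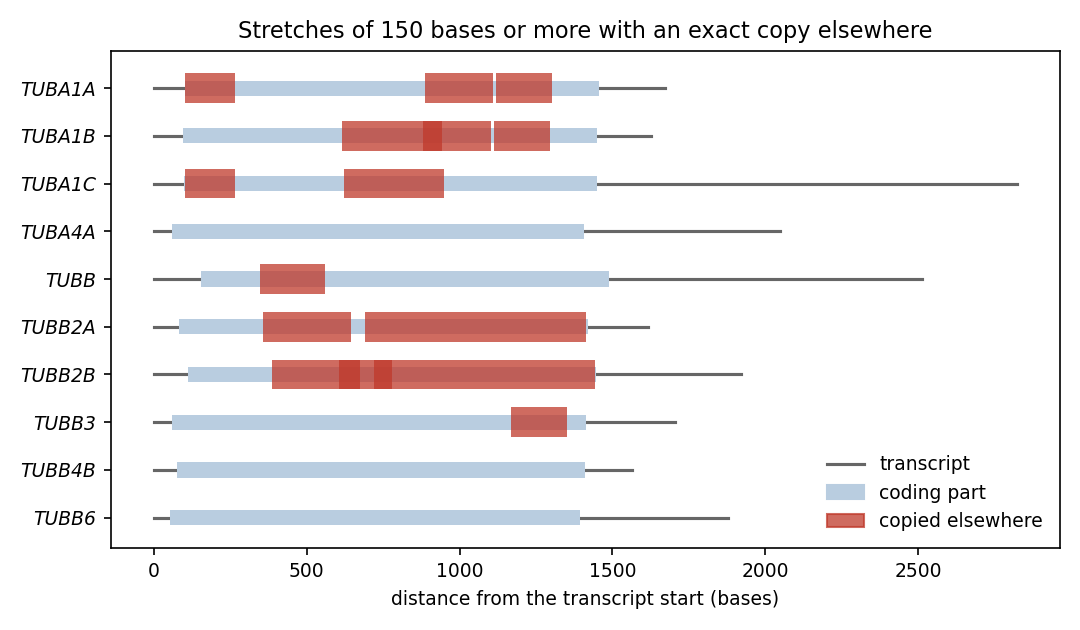
Canonical transcripts of the 10 isotypes as distance in bases from the transcript start, with the coding part as a thick bar and red blocks over stretches of 150 bases or more that occur exactly elsewhere in the genome. The blocks cover most of the coding part of TUBB2A and TUBB2B and are absent from TUBA4A, TUBB4B and TUBB6.

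Other genes also lie over the isotypes. The exons of TUBB3 overlapped a same-strand readthrough gene, ENSG00000198211, over 92.85% of the transcript, and those of TUBA1B the antisense RNA TUBA1B-AS1 over 72.65%. Neither of these overlapping genes has a row of its own in the deposited values, so their levels could not be described. TUBA4A overlapped the kinase gene STK16 on the opposite strand over 30.65% of its length. Opposite-strand overlaps covered 23.59% of TUBA1C, 21.39% of TUBB, 7.933% of TUBB4B and 6.22% of TUBA1A. For TUBA1A the overlapping exons, over 104 bases, belong to TUBA1C, itself a counted isotype. The strand setting of the counting is not given in the sources used here, and without strand the reads of opposite-strand genes cannot be told apart. For TUBB3 the overlap is on the same strand, where strand does not separate the reads, so its level is uncertain.

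TUBA1B, TUBA1A and TUBA1C lie together on chromosome 12, at 49521565-49525178, 49578578-49582863 and 49658865-49668383. Between their canonical transcripts the gaps are 53.4 kb and 76.0 kb, though other annotated exons of TUBA1C reach over TUBA1A. The canonical transcripts of TUBB2A and TUBB2B lie 66.73 kb apart on chromosome 6, at 3153900-3157778 and 3224511-3227887. TUBB is on the same chromosome at 30688129-30693199, TUBA4A on chromosome 2 at 220114432-220118640 and TUBB3 on chromosome 16 at 89989750-90002505. TUBB4B is on chromosome 9 at 140135739-140138159 and TUBB6 on chromosome 18 at 12308240-12326615. All these positions are those of the canonical transcripts, each of which has 4 exons.

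The spread of each isotype between the WT libraries was tested on the recovered reads by a chi-square test of homogeneity over all genes, with Benjamini-Hochberg adjustment. It called 4 of the 10 isotypes, against 41.9% of the 14646 genes tested. They were TUBA1B (adjusted p = 1.22e-45), TUBB4B (1.18e-35), TUBA1C (1.35e-15) and TUBB (0.0166). These are the 4 isotypes with 10000 reads or more, and among the 607 genes at that depth 81.55% were called. The values behind the calls are small, with the highest library 1.062 times the lowest for TUBA1B, 1.082 for TUBB4B, 1.105 for TUBA1C and 1.016 for TUBB. The call of TUBB was lost with library totals in place of TMM (adjusted p = 0.067) and without replicate 1 (0.0568) or replicate 3 (0.712), and that of TUBB4B without replicate 3 (0.261). Without replicate 1, TUBA1A (0.0388) and TUBB3 (0.042) were called.

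The chi-square test allows for counting error alone. The trended dispersion of edgeR, estimated from these libraries, was then added to the variance. With it, 0 of the 10 isotypes were called, 0 had an unadjusted p under 0.05, and 0.416% of all genes were called. The dispersion was fitted to the same spread that is tested. Few calls were therefore possible, and their absence shows nothing about the isotypes. The median SD of the isotypes was 3.263% of the mean, against 5.56% over all genes tested, and their median chi-square per degree of freedom was 3.543, against 3.023. An SD in percent takes in counting error, which is larger for genes with fewer reads. The largest spread was in TUBB2B, at 10.19%, with 176 to 201 reads per library, and the smallest in TUBB, at 1.064%. Replicate 2 was lowest for 6 isotypes and replicate 3 highest for 7. How often this holds over all genes was not counted, so it is not given as a trait of the isotypes.

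Other tubulins and the genes that fold, modify and bind tubulin were described from lists of 104 genes. Of these, 83 passed the same level of 1 CPM in each library, beside 47.7% of all genes. That share over all genes also stands beside the count of each list below. Of the 89 of them tested, the chi-square test called 44, beside 41.9% of all genes tested. With the dispersion added, which was fitted to the same spread, 0 were called, beside 0.416% of all genes. Among the 8 other alpha and beta tubulins of the list, which leaves out TUBA4B and TUBB8B, only TUBA3D (43.0 ± 12.4 per kb, SD, n = 3) and TUBA8 (31.8 ± 1.07) were expressed. TUBA3C had 1 read in all, and TUBA3E, TUBAL3, TUBB1 (of platelets), TUBB4A (of brain) and TUBB8 (of oocytes) were below 1 CPM in at least 1 library. TUBA3C, TUBA3D and TUBA3E are near-identical copies, so their levels are uncertain.

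All 21 folding genes were expressed. The highest per kb were PFDN5, a prefoldin subunit, at 9754 ± 388 and CCT3, a subunit of the CCT chaperonin that folds tubulin, at 8788 ± 178 (SD, n = 3). The lowest were the cofactor TBCE at 208 ± 14.5 and TBCEL at 204 ± 14.1. All 13 genes of the gamma, delta and epsilon tubulins and the gamma-tubulin ring complex, which starts new microtubules, were expressed as well. They ran from MZT2B (6452 ± 413) and MZT2A (2580 ± 99.5) down to TUBGCP5 (175 ± 8.97) and TUBD1 (129 ± 3.96). MZT2A and MZT2B are near-identical copies, so the split between them is uncertain.

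Tubulin RNA is degraded when free tubulin builds up, and TTC5 recognises the first residues of the growing tubulin chain in this loop. The first codons of each coding sequence are shown because they encode these residues. Each line is in lower case throughout.
TUBA1A, TUBA1B and TUBA1C: atgcgtgagtgc
TUBA4A: atgcgtgaatgc
TUBB and TUBB4B: atgagggaaatc
TUBB3 and TUBB6: atgagggagatc
TUBB2A: atgcgcgagatc
TUBB2B: atgcgtgagatc

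The 3 genes of the loop were all expressed, at 262 ± 6.12 per kb for TTC5, 102 ± 9.25 for its partner SCAPER and 989 ± 47.6 for CNOT11 of the deadenylase complex (SD, n = 3). All 5 genes of the tyrosine cycle, in which the last tyrosine of alpha-tubulin is removed and put back, were expressed. TTL, which adds the tyrosine, was at 103 ± 1.47 per kb over a canonical transcript of 14267 bases. The enzymes that remove it were at 19.0 ± 3.70 for VASH1, 63.4 ± 3.20 for VASH2 and 554 ± 33.4 for MATCAP1, and SVBP, the partner of the vasohibins, at 351 ± 40.5. For acetylation, the acetyltransferase ATAT1 was at 426 ± 35.8 and the deacetylases HDAC6 and SIRT2 at 304 ± 22.1 and 755 ± 38.6.

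The list for glutamylation and glycylation holds TTLL enzymes, which add glutamate or glycine to tubulin, and carboxypeptidases, which remove glutamate. Of its 18 genes 9 were expressed, a share near the 47.7% of all genes. The highest were the carboxypeptidase AGBL5 at 577 ± 20.4 per kb and the glutamylase TTLL4 at 288 ± 19.3 (SD, n = 3). TTLL8, AGBL1 and AGBL2 were at 0 reads in each library, and TTLL2, TTLL6, TTLL9, TTLL10, TTLL13 and AGBL4 were below 1 CPM in at least 1 library. Of the severing and depolymerizing genes 9 of 10 were expressed, led by the kinesin KIF2C at 1180 ± 30.3 and FIGNL1 at 1094 ± 19.6, with FIGN at 16.5 ± 2.64. KIF2B was at 0 reads.

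All 14 general microtubule-associated genes were expressed. The highest were STMN1, which binds free tubulin dimers, at 11523 ± 283 per kb, and STMN3 at 3642 ± 78.6 (SD, n = 3), and the lowest MAPRE3 at 255 ± 13.1 and CLASP1 at 147 ± 5.90. Of the 9 neuronal microtubule-associated genes MAPT, MAP1A, MAP2 and MAP1B were expressed, with MAP2 at 250 ± 16.6 and MAP1B at 160 ± 9.12. The other 5 were below 1 CPM in at least 1 library, with DCX and STMN2 at 1 read in all, DCLK1 at 0, MAP6 at 4 to 7 reads and STMN4 at 37 to 47. TUBB3, at 2097 per kb, was measured beside neuronal genes of which some were expressed and others were at or near 0.

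**Figure D5:**
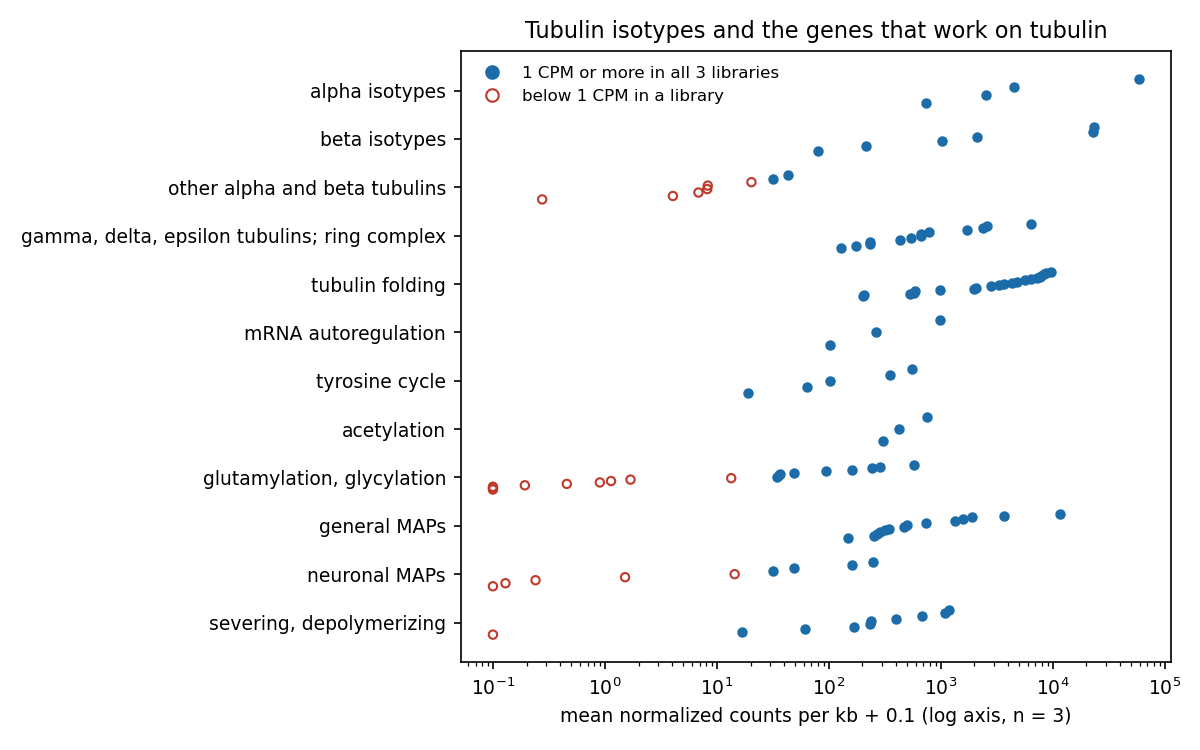
Mean level per kb plus 0.1 (log axis, n = 3) of the 10 isotypes and of the 104 genes of the tubulin lists, in a row for each list, with filled points for genes at 1 CPM or more in all 3 libraries and open points for the others. The folding genes and the general microtubule-associated genes (MAPs) are all filled, and 5 of the 9 neuronal MAPs are open.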

How the data were processed

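The authors aligned 150-base paired-end reads of 3 22Rv1 WT libraries to GRCh37 (hg19) with HISAT2, used HTSeq to count reads per GENCODE gene and DESeq2 to normalize the counts. What was deposited is a signal per gene, the reads over a library's size factor (1.26572, 1.18169 and 1.27022), given to 1 decimal. Whole reads were recovered from their steps for 100% of values within 0.05 units, and served for all tests in place of raw counts. Adjacent rows identical in all 3 libraries (1976 of 29000 rows, 8 rows for TUBB) were counted once.

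Positions, lengths and sequences came from the GRCh37 genome and GENCODE v44lift37. The design planned protein features, and coding bases took their place. Some sequences are not reported here. Tools were R 4.3.3, edgeR 4.0.16 (TMM, dispersion), DESeq2 1.42.0 (re-estimated size factors), scipy 1.17.1 and BLAST 2.17.0 (exact copies). The chi-square test ran over genes that averaged 10 reads or more, at a threshold of 0.05 after Benjamini-Hochberg adjustment. It was tested on simulated data that held counting error only, so the simulation does not cover spread beyond counting error. Of each list, the 2 highest and 2 lowest genes per kb and those below 1 CPM in a library were named, and lists of up to 5 genes were named whole. The members and lists were chosen with earlier results of these data known. The alternatives were other scalings, minimum counts, lengths, thresholds for expression, a dispersion term, and omission of each replicate in turn.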

Additional observations from a re-analysis of the deposited data

How the results depend on the processing

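Shares depended on the unit. The share of TUBA1B in alpha tubulin was 88.4% per kb of transcript and 90.0% per kb of windows without a copy, against 83.9% by counts. That of TUBB in beta tubulin was 46.2% and 45.6%, and 91.6% when its 8 identical rows were summed. That of TUBB3 was 4.19% and 4.25%, and 0.705% with the rows summed. The ratio of alpha to beta per kb was 1.12 with coding length and 1.61 with windows without a copy, alternatives chosen after seeing the data. The added dispersion, fitted to the same spread that is tested, left 61 genes and 0 isotypes called. With each replicate left out in turn, 3323 to 3950 genes and 2 to 5 isotypes were called. TUBB stood below TUBB4B per kb of transcript and above it per kb of coding sequence, and the other 8 isotypes kept their ranks. All 50 alternative levels stayed within 1 SD, which is no evidence that the levels are robust. With n = 3, leaving out 1 library cannot move a mean by more than that. The other scalings were set back to the deposited scale. TUBB2A and TUBB2B, with 176 to 468 reads per library and the most copied sequence, are the least precise levels. No paired analysis was possible because only 1 group was analysed.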
